A study of Mus musculus with 12 samples.

Results

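The Fc receptor genes of macrophages were followed in RNA sequencing of mouse bone marrow-derived macrophages (BMMs). They were the 6 genes Fcgr1, Fcgr2b, Fcgr3, Fcgr4, Fcer1g and Fcgrt, chosen as a named family, out of 38887 genes in each library. WT and IGF2BP2 KO BMMs were compared, untreated (M0) or treated with IL-4 (M2), with 3 libraries in each of the 4 groups and 12 in all. The KO mice came from B6.Cg-Igf2bp2tm1.1Thor/J mice, in which loxP sites lie around exons 4 to 5 of Igf2bp2, bred to 29P2-Lyz2tm1(cre)Ifo/J mice, whose Cre is made from the Lyz2 locus in macrophages, monocytes and neutrophils. WT animals were littermates with no floxed allele, with or without Cre, so Cre was not held equal between the genotypes. All mice were 3 to 4 months old. In all groups marrow cells were grown for 6 days in M-CSF at 50 ng/ml, and the M2 groups then received IL-4 at 20 ng/ml for 8 h while the M0 groups received none. The libraries were made from whole cultures, in which fewer cells of a type and less RNA per cell cannot be told apart.

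Fc receptors bind the constant part of antibodies. Fcgr1, Fcgr3 and Fcgr4 encode the ligand-binding chains of the activating IgG receptors, and Fcer1g encodes the common gamma chain, whose ITAM motif is phosphorylated by Src family kinases and recruits the kinase Syk to start phagocytosis. Fcgr2b encodes the inhibitory IgG receptor, whose ITIM motif recruits the phosphatase SHIP1, and the balance between it and the activating receptors sets the threshold at which immune complexes trigger a macrophage. Fcgrt encodes the heavy chain of FcRn, which pairs with beta-2-microglobulin, binds IgG in acidic endosomes and returns it to the cell surface. Interferon gamma is known to raise Fcgr1, and IL-4 acts through the transcription factor STAT6 in alternatively activated macrophages.

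Levels are given as TPM, which corrects for gene length and library size, and changes as log2 fold changes fitted to the counts by edgeR, where a gene is called changed at a Benjamini-Hochberg adjusted p under 0.05 over 12846 genes tested. All 6 receptor genes passed the filter on low counts. Library totals ran from 20011771 to 22744687 counts in WT M2 and reached 39632751 in KO M2, and the receptor gene with the fewest counts, Fcgr4, had 228 to 445 per library. Igf2bp2 itself was at 56.8 TPM in WT M0 and 52.8 TPM in KO M0 (log2 fold change -0.11, SE 0.13, edgeR adjusted p = 0.656) and was lower in KO M2 (-0.65, SE 0.13, adjusted p = 0.0285), but the value per gene adds the exons outside the deletion and so does not check it. The study's own protein and mRNA assays found it nearly absent from KO BMMs. Lyz2, the gene that hosts Cre, was at 11048 to 15401 TPM in WT M0 and at 33.8 to 50.2 TPM in KO M0, and the genotypes did not overlap. In M2 it was at 6126 to 7725 TPM in WT and at 15.2 to 21.6 TPM in KO. The Igf2bp2 deletion and the loss of Lyz2 transcript thus go together in every KO against WT comparison, and their separate parts were not tested. Library 3 stood apart in WT: the chi-square of counts per degree of freedom was 41.9 and 25.3 against the other WT M0 libraries, which were at 9.02 from each other, and 22.3 and 18.3 against the other WT M2 libraries, at 6.07 from each other. Library 1 stood apart in KO M2 (21.1 and 15.8, against 5.15). All 6 macrophage markers were present, and their summed level was 4639 to 5122 CPM (counts scaled to library size) in WT M0 and 4993 to 5094 CPM in KO M0. Markers of mast cells and basophils, the cells that carry the IgE receptor, summed to at most 0.101 CPM with 4 of 6 genes at 0 in all libraries. NK cell markers summed to at most 0.132 CPM, T cell markers to 0.891 CPM, erythroid markers to 0.169 CPM, dendritic cell markers to 2.08 CPM and B cell markers to 8.67 CPM.

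Fcgr2b, Fcgr4, Fcgr3 and Fcer1g lie on chromosome 1 within one stretch of the genome, and Fcgr1 and Fcgrt lie elsewhere. In GRCm38, Fcgr2b (ENSMUSG00000026656) is at chr1:170958617-170976547 on the minus strand, Fcgr4 (ENSMUSG00000059089) at chr1:171018920-171029761 on the plus strand, Fcgr3 (ENSMUSG00000059498) at chr1:171051174-171064935 on the minus strand and Fcer1g (ENSMUSG00000058715) at chr1:171229572-171234365 on the minus strand. Fcgr1 (ENSMUSG00000015947) is at chr3:96282909-96293969 and Fcgrt (ENSMUSG00000003420) at chr7:45092990-45103851, both on the minus strand. The 250 bases before a RefSeq transcript start are given for Fcgr2b and Fcgr3, the receptors that rose most with IL-4, for Fcgr1, the receptor that fell, and for Fcgr4, the neighbour that moved least of the receptors called. They come from RefSeq (GRCm38.p6), which matched all 6 genes, and by the gene bounds above the windows of Fcgr2b and Fcgr3 lie inside the genes, before a start that is internal to the GENCODE gene. RefSeq had a further start for Fcgr3 a few bases away, which is not printed. Capitals mark any of 4 motifs searched on both strands.
Fcgr2b, chr1:170976072-170976321, minus strand: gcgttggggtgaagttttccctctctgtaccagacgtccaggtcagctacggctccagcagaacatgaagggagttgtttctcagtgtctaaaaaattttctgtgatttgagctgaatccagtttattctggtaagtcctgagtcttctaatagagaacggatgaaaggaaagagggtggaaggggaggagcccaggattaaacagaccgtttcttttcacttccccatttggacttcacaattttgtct
Fcgr3, chr1:171059404-171059653, minus strand: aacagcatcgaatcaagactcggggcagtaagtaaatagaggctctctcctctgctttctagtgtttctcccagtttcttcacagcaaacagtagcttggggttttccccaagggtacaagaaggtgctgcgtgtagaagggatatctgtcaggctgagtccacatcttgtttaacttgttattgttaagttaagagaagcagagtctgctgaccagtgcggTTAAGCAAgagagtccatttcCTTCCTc
Fcgr1, chr3:96293970-96294219, minus strand: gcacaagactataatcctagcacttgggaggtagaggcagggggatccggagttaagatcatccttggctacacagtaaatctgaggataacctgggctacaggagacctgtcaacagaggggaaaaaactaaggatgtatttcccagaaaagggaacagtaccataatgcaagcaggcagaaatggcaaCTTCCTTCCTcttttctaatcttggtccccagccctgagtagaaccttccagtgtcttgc
Fcgr4, chr1:171018676-171018925, plus strand: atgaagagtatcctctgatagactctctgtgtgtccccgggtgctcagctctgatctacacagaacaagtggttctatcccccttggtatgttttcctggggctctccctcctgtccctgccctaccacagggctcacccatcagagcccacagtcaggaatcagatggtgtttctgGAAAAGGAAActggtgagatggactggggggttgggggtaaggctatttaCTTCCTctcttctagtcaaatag

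The Fcgr2b window held none of the 4 motifs. The PU.1 core AGGAAG, read as CTTCCT on the other strand, stood in the windows of Fcgr3, Fcgr1, Fcgr4 and Fcer1g, and in 29.5% of 32851 promoters. The interferon-type repeat, GAAA followed by GAAA with a gap of NN, stood in the Fcgr4 window 73 to 64 bases before the start and in 2.98% of all promoters, and the C/EBP half-sites TTGCNNAA stood in the Fcgr3 and Fcgrt windows and in 9.56% of all promoters. The STAT6-type palindrome TTCNNNNGAA stood in none of the 6 windows and in 5.85% of all promoters. The PU.1 core of Fcgr1 was present in 2 overlapping copies, and the motifs describe only the letters of these windows.

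In untreated cells the common gamma chain was by far the most abundant of the 6 transcripts, and the inhibitory receptor was among the least abundant. The order in WT M0 was Fcer1g at 1049 ± 96.4 TPM (SD, n = 3), Fcgr3 at 255 ± 22.8 TPM, Fcgr1 at 75.1 ± 6.90 TPM, Fcgrt at 41.9 ± 0.186 TPM, Fcgr2b at 22.1 ± 8.26 TPM and Fcgr4 at 16.0 ± 1.84 TPM. Neighbours in this order did not overlap between libraries, except Fcgr2b and Fcgr4, which overlapped in WT M0 and in KO M0. After IL-4 the inhibitory receptor ranked behind Fcer1g and Fcgr3 in both genotypes and ahead of Fcgrt and Fcgr1, with no overlap between any neighbours. The plot of TPM by library shows this reordering.

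**Figure D1:**
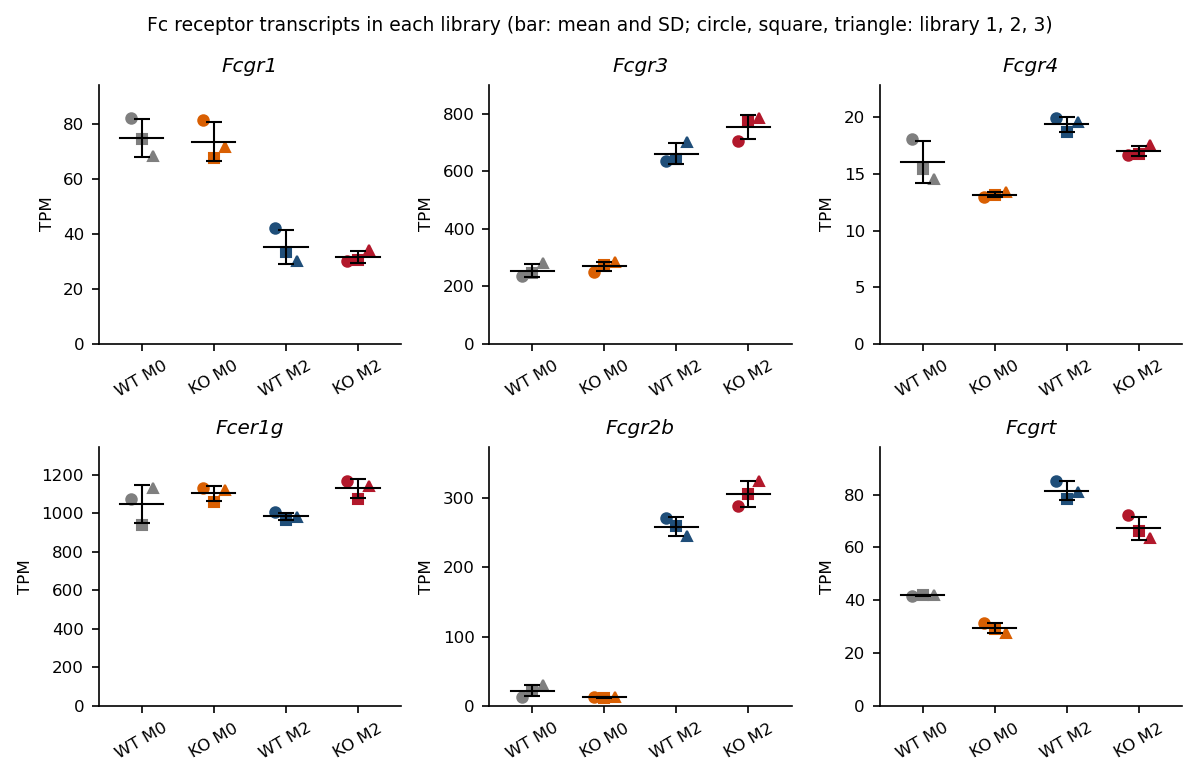
TPM of each Fc receptor gene (linear axes from 0) in the 12 libraries, with circles, squares and triangles for libraries 1, 2 and 3 and black bars for the mean and SD of each group (n = 3). Fcgr2b went from 11.7 to 30.05 TPM in the 6 M0 libraries to between 245 and 325 TPM in the 6 M2 libraries, while Fcer1g stayed between 942 and 1170.1 TPM throughout.

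IL-4 changed 5 of the 6 receptor genes in WT cells, 4 of them upwards and 1 downwards. Over all genes tested 50.0% were called in WT, 24.9% higher and 25.1% lower, so that a changed gene was common after IL-4. In KO cells the same 5 genes were called in the same directions, against 52.8% of all genes called, 26.8% higher and 26.0% lower. The M0 and M2 libraries did not overlap for 5 of 6 receptor genes in either genotype, against 55.2% of all genes in WT and 63.4% in KO. The median log2 fold change of the 6 genes was 0.68 in WT and 0.87 in KO, beside -0.01 and 0.01 over all genes tested. Summed dendritic cell markers were at 0.268 to 0.641 CPM in the M0 libraries and 1.49 to 2.08 CPM in the M2 libraries, and their part was not tested. Zbtb46 carried this rise (mean 0.288 CPM in WT M0 and 1.58 CPM in WT M2), whereas Clec9a was at 0.146 and 0.0791 CPM. Summed macrophage markers were at 5643 to 6002 CPM in WT M2 and 5624 to 5818 CPM in KO M2, above all M0 libraries. Summed neutrophil markers were at 5.49 to 15.9 CPM in WT M0 and 2.35 to 8.00 CPM in WT M2, and at 2.85 to 3.27 CPM in KO M0 and 2.67 to 3.28 CPM in KO M2. The part of these lists was not tested either.

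Fcgr2b, the inhibitory receptor, showed the widest change of the 6 genes. In WT it was at 13.6, 22.8 and 30.05 TPM in the M0 libraries and at 272, 260.4 and 245 TPM in the M2 libraries. In KO it was at 12.9, 11.7 and 13.0 TPM in M0 and at 288, 306 and 325 TPM in M2. Every M2 library lay far above every M0 library. The fitted rise was 12.2-fold in WT (log2 fold change 3.61, SE 0.20, edgeR adjusted p = 1.59e-08) and 26.0-fold in KO (4.70, SE 0.22, adjusted p = 2.29e-09).

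Fcgr3, the low-affinity activating receptor and the most abundant ligand-binding chain, rose alongside. In WT it was at 236, 248 and 280.2 TPM in M0 and at 637, 644 and 704 TPM in M2. The KO values were 251, 273 and 283 TPM in M0 and 707, 775 and 785 TPM in M2. The M0 and M2 libraries were well apart in both genotypes. Its fitted rise was 2.70-fold in WT (1.43, SE 0.08, edgeR adjusted p = 1.86e-08) and 2.96-fold in KO (1.57, SE 0.08, adjusted p = 8.07e-09). Fcgr2b and Fcgr3 are close relatives, and of the 75-base windows in their GENCODE M21 transcripts 94 are identical, which is 5.42% of those of Fcgr3 and 1.63% of those of Fcgr2b. Fcgr1, Fcgr4, Fcer1g and Fcgrt shared no such window with another gene. The deposited posterior SD of the count, which was 0 for these other 4 genes, was between 3.22 and 18.3 reads for Fcgr2b and Fcgr3, where Fcgr2b had at least 265 counts in every library. Added together as 1 feature the pair rose by 1.81 on the log2 scale in WT (SE 0.09) and by 2.02 in KO (SE 0.09).

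Fcgr1, the high-affinity IgG receptor, was the member that fell. It was at 82.2, 74.7 and 68.4 TPM in WT M0 and at 42.05, 33.4 and 30.15 TPM in WT M2. KO M0 libraries had 81.6, 67.6 and 71.8 TPM and KO M2 libraries 30.3, 30.4 and 34.1 TPM. All M2 libraries lay below all M0 libraries. The fitted level was 2.04-fold lower in WT (log2 fold change -1.03, SE 0.11, edgeR adjusted p = 4.42e-06) and 2.20-fold lower in KO (-1.14, SE 0.10, adjusted p = 1.26e-06).

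Fcgr4, an activating receptor found on monocytes, macrophages and neutrophils, had the smallest rise. It was at 18.1, 15.5 and 14.6 TPM in WT M0 and at 19.9, 18.7 and 19.6 TPM in WT M2. In KO it was at 12.9, 13.2 and 13.4 TPM in M0 and at 16.7, 16.8 and 17.5 TPM in M2. The groups did not overlap, although the highest WT M0 library lay close to the M2 libraries. The fitted rise was 1.26-fold in WT (0.34, SE 0.07, edgeR adjusted p = 0.00212) and 1.37-fold in KO (0.45, SE 0.07, adjusted p = 0.000195).

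Fcer1g, the signalling chain that Fcgr1, Fcgr3 and Fcgr4 need at the cell surface, was not called changed. It was at 1075, 942 and 1129 TPM in WT M0 and at 1005, 967 and 983 TPM in WT M2. In KO it was at 1132, 1060.3 and 1123 TPM in M0 and at 1170.1, 1077 and 1139.8 TPM in M2. The M0 and M2 libraries overlapped in both genotypes. The fitted difference was -0.03 in WT (95% interval -0.20 to 0.14, edgeR adjusted p = 0.787) and 0.11 in KO (-0.05 to 0.28, adjusted p = 0.239) on the log2 scale.

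Fcgrt, the FcRn heavy chain, rose in both genotypes. In WT it was at 41.7, 41.8 and 42.1 TPM in M0 and at 85.3, 78.2 and 80.85 TPM in M2. In KO it was at 31.5, 29.0 and 27.7 TPM in M0 and at 72.1, 66.1 and 63.7 TPM in M2. The M2 libraries of both genotypes lay above all M0 libraries. The fitted rise was 2.03-fold in WT (1.02, SE 0.07, edgeR adjusted p = 1.07e-07) and 2.43-fold in KO (1.28, SE 0.07, adjusted p = 1.31e-08). All 5 calls held in both genotypes with every alternative test, filter and scaling and with each of the 12 libraries left out in turn.

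**Figure D2:**
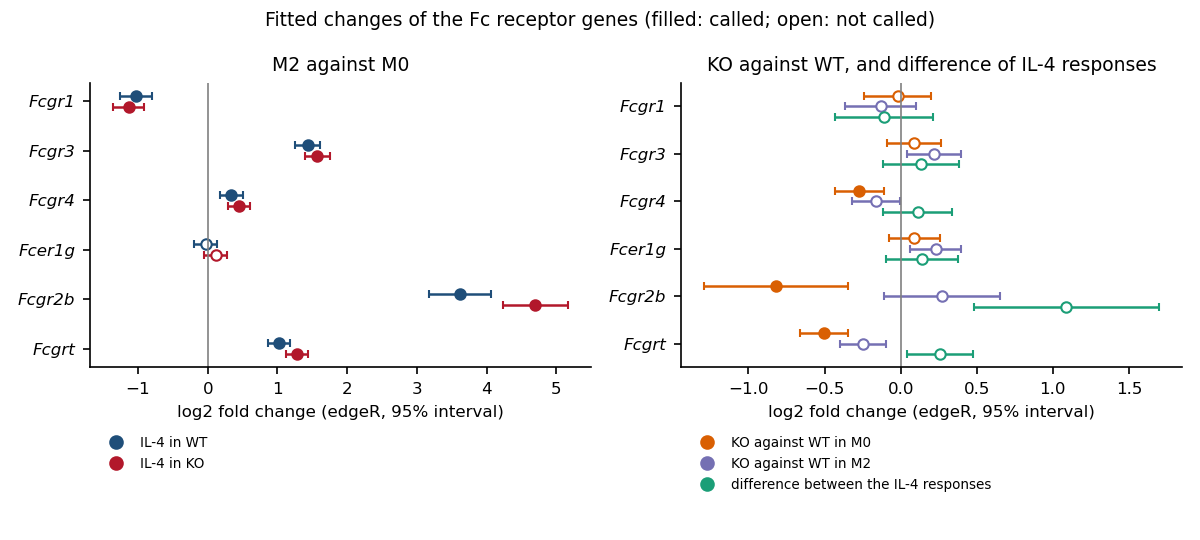
Fitted log2 fold changes of the 6 genes with 95% intervals, for IL-4 in each genotype (left) and for KO against WT and for their differing response to IL-4 (right); filled points were called by edgeR. Fcgr2b lies at 3.61 and 4.70 for IL-4, Fcgr1 at -1.03 and -1.14, and the M0 genotype values called are those of Fcgr2b, Fcgrt and Fcgr4.

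The balance of the receptor transcripts differed between M0 and M2, as described from TPM with no test. The 4 ligand-binding chains summed to 368 ± 22.5 TPM in WT M0 (SD, n = 3) and 975 ± 21.5 TPM in WT M2. The sum was 368 ± 11.6 TPM in KO M0 and 1111 ± 61.6 TPM in KO M2. Fcgr3 held most of the sum in every group, between 65.6% and 74.7% of it in single libraries. The share of Fcgr1 was 20.5% ± 3.04 in WT M0 and 3.62% ± 0.664 in WT M2, and in KO it was 20.0% ± 2.38 and 2.85% ± 0.130. The share of Fcgr2b was 5.94% ± 1.91 in WT M0 and 26.6% ± 1.84 in WT M2, and in KO it was 3.41% ± 0.206 and 27.6% ± 0.457. Fcgr1 and Fcgr2b thus changed places as the second most abundant chain, and the share of Fcgr4 was at most 5.17% in any library.

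The ratio of inhibitory Fcgr2b to the sum of activating Fcgr1, Fcgr3 and Fcgr4 was higher in M2 in every library. It was 0.0403, 0.0674 and 0.0827 in WT M0 and 0.389, 0.374 and 0.325 in WT M2. In KO it was 0.0374, 0.0330 and 0.0354 in M0 and 0.382, 0.372 and 0.389 in M2. All M2 libraries stood apart from all M0 libraries, and the M2 values of WT and KO overlapped. The amount of Fcer1g per activating ligand-binding chain was 3.03 ± 0.213 in WT M0 and 1.38 ± 0.0681 in WT M2, and in KO it was 3.11 ± 0.148 and 1.41 ± 0.127, so that the gamma chain transcript was above the sum of these chains in all groups.

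**Figure D3:**
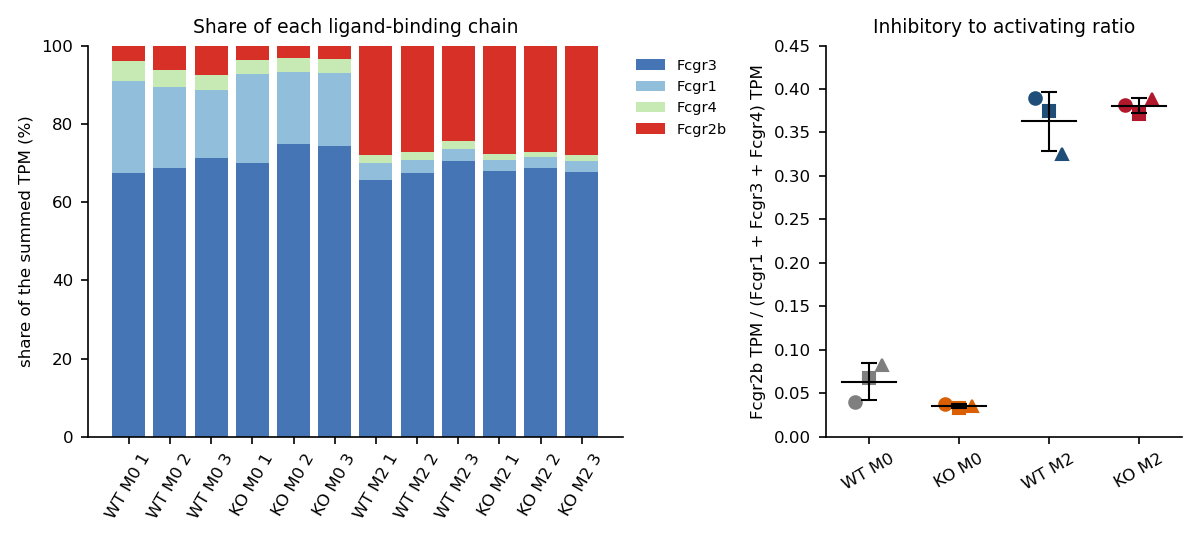
Left, share of each ligand-binding chain in the summed TPM of Fcgr1, Fcgr2b, Fcgr3 and Fcgr4 (percent, from 0 to 100) in the 12 libraries; right, Fcgr2b TPM over the summed TPM of the other 3 chains, with the mean and SD of each group (n = 3). The Fcgr2b share lies between 3.20% and 7.64% in M0 and between 24.5% and 28.0% in M2.

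In untreated cells 3 of the 6 receptor genes were called lower in KO than in WT and none higher, where 9.78% of all genes tested were called and 4.27% were called lower. Fcgrt, Fcgr2b and Fcgr4 were the genes called, and their WT and KO libraries did not overlap, against 31.1% of all genes with no overlap. The median log2 fold change of the 6 genes was -0.15, beside 0.00 over all genes tested. Summed neutrophil markers were at 12.8, 15.9 and 5.49 CPM in WT M0 and at 3.27, 3.08 and 2.85 CPM in KO M0, with Ly6g at 0 in all libraries. Summed stromal markers, carried by Col1a1 and Col1a2, were at 48.6, 27.5 and 35.7 CPM in WT M0 and at 25.3, 26.1 and 7.18 CPM in KO M0. Ltf and Ngp carried the neutrophil sum (means 5.72 and 5.41 CPM in WT M0, 1.34 and 1.51 CPM in KO M0). The other 4 neutrophil genes were under 1 CPM in all libraries, with Camp at 0.228 and 0.196 CPM and Mpo at 0.0114 and 0.0219 CPM. Both sums were thus lower in KO, as were the 3 receptor genes, and their part in these differences was not tested.

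Fcgrt had the most stable difference of the 3. It was at 41.7, 41.8 and 42.1 TPM in WT M0 against 31.5, 29.0 and 27.7 TPM in KO M0, a fitted level 29.6% lower (log2 fold change -0.51, SE 0.07, edgeR adjusted p = 0.00157). The WT libraries were almost equal and all KO libraries lay below them. The call held in all alternatives, with the fitted value between -0.54 and -0.47 when 1 library was left out.

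Fcgr2b was at 13.6, 22.8 and 30.05 TPM in WT M0 against 12.9, 11.7 and 13.0 TPM in KO M0, a fitted level 43.3% lower (-0.82, SE 0.22, edgeR adjusted p = 0.0345). The WT libraries were widely spread, and the lowest of them lay next to the highest KO library. The call depended on single libraries: the value was -0.50 without WT M0 library 3 (adjusted p = 0.0731), -0.81 without WT M0 library 2 (0.105) and -1.09 without WT M0 library 1 (0.000538), and leaving out any of the KO M0 libraries or WT M2 library 2 gave an adjusted p of 0.0513 to 0.127. It was also lost with the 6 libraries compared (0.0978) and with limma on log2(TPM + 1) (0.0594) and log2(TPM + 0.1) (0.0599). Added to Fcgr3, the pair was at 0.025 (SE 0.09, adjusted p = 0.895). WT M0 had a mean of 5128 counts for Fcgr3 and 478 for Fcgr2b, so this sum mainly follows Fcgr3 and does not test Fcgr2b again.

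Fcgr4 was at 18.1, 15.5 and 14.6 TPM in WT M0 against 12.9, 13.2 and 13.4 TPM in KO M0, a fitted level 17.3% lower (-0.27, SE 0.07, edgeR adjusted p = 0.0365). All WT libraries lay above all KO libraries, by a narrow gap. The call was lost when any of 8 libraries was left out (all KO M0 libraries, WT M0 libraries 1 and 2, WT M2 library 2 and KO M2 libraries 2 and 3), with an adjusted p of up to 0.119. It was also lost in 7 of 10 other alternatives, namely DESeq2 (0.0576), no filter on low counts (0.103), limma on all 3 TPM scales (0.0685 to 0.0797), the 6 libraries compared (0.0943) and thinned libraries (0.0662).

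The remaining 3 genes, Fcgr1, Fcgr3 and Fcer1g, overlapped between WT M0 and KO M0. The fitted difference was -0.02 for Fcgr1 (95% interval -0.24 to 0.20, edgeR adjusted p = 0.931). It was 0.08 for Fcgr3 (-0.09 to 0.26, adjusted p = 0.565). It was 0.09 for Fcer1g (-0.08 to 0.26, adjusted p = 0.511).

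After IL-4, edgeR called 0 of the 6 genes different between KO and WT, against 2.68% of all genes tested. At an unadjusted p under 0.05 the count was 4 of 6, against 20.3% of all genes, and DESeq2 called 1 and limma 0. The WT and KO libraries did not overlap for 5 of the 6 genes, against 24.8% of all genes. Fcgrt remained lower in all KO libraries (63.7 to 72.1 TPM) than in all WT libraries (78.2 to 85.3 TPM), with a fitted difference of -0.25 (SE 0.07, adjusted p = 0.0794) that DESeq2 called (0.0326) and edgeR called without KO M2 library 1 (0.0182). Fcgr4 was likewise at 16.7 to 17.5 TPM in KO and 18.7 to 19.9 TPM in WT (-0.16, SE 0.07, adjusted p = 0.24). Summed stromal markers were again lower in KO (8.11 to 22.6 CPM) than in WT (27.8 to 51.1 CPM), and their part was not tested. Summed neutrophil markers overlapped in M2, at 2.67 to 3.28 CPM in KO and 2.35 to 8.00 CPM in WT.

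Fcgr2b, Fcgr3 and Fcer1g stood on the other side in M2, with all KO libraries above all WT libraries. Fcgr2b was at 288 to 325 TPM in KO and 245 to 272 TPM in WT (0.27, SE 0.18, edgeR adjusted p = 0.417). Fcgr3 was at 707 to 785 TPM in KO and 637 to 704 TPM in WT (0.22, SE 0.08, adjusted p = 0.156). Fcer1g was at 1077 to 1170.1 TPM in KO and 967 to 1005 TPM in WT (0.23, SE 0.08, adjusted p = 0.125). None of these passed the test, although Fcgr3 and Fcer1g did without WT M0 library 3 (adjusted p = 0.0456 and 0.0429). Fcgr1 overlapped between the genotypes (-0.13, SE 0.11, adjusted p = 0.524).

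Whether KO and WT responded differently to IL-4 was tested as an interaction, and edgeR called 0 of the 6 genes, against 3.24% of all genes tested. At an unadjusted p under 0.05 the count was 2 of 6, Fcgr2b and Fcgrt, against 17.8% of all genes, and limma called 0 while DESeq2 called 1. For Fcgr2b the IL-4 response was 1.09 larger in KO on the log2 scale (95% interval 0.48 to 1.70, adjusted p = 0.0573). With the library number as a block within each genotype, which pairs the M0 and M2 libraries, it was 1.05 and passed the test (adjusted p = 0.0476), in a fit that called 1003 genes in place of 416. DESeq2 also called it (0.0282), as did fits with no filter on low counts (0.013), with libraries thinned to equal depth (0.0372) and without WT M0 library 1 (1.36, adjusted p = 0.00124). The value was 0.77 without WT M0 library 3 (0.0619), so the spread of the WT M0 libraries bears on it. It was not called with limma on the 3 TPM scales (adjusted p from 0.119 to 0.146), RLE scaling (0.0556) or at least 1 CPM in 3 libraries (0.0532). With Fcgr2b and Fcgr3 added together, a sum in which Fcgr3 holds most of the counts, the difference was 0.21 (SE 0.12, adjusted p = 0.402). For Fcgrt the response was 0.26 larger in KO (SE 0.10, adjusted p = 0.199). For the other 4 genes the fitted difference lay between -0.11 and 0.14.

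The genes through which the receptors signal moved in both directions with IL-4. In the list of activating ITAM signalling, 24 of 24 genes were tested and 12 rose and 6 fell in WT, where the median of log2 values was 0.23, and in KO 11 rose and 7 fell (median 0.11). These were 75.0% of the list called in each genotype, beside 50.0% of all genes in WT and 52.8% in KO. The Src family kinase Fyn rose by 2.50 in WT and 2.40 in KO, and the ubiquitin ligase Cblb, a brake on such signalling, rose by 3.00 and 2.45. The protein kinase Prkcd rose by 2.14 in WT and was called in KO too, and the adaptor Gab2 by 1.22 and 0.77. Syk, named for its place next to the gamma chain after its values were seen, was at -0.07 (SE 0.08, edgeR adjusted p = 0.512) and -0.19 (SE 0.08, adjusted p = 0.0556). In M0, 7 of the 24 genes (29.2%, beside 9.78% of all genes called) were higher in KO than in WT and none lower, among them Vav3 (0.60) and Cblb (0.45), and in M2, where 2.68% of all genes were called, the single gene was Vav3 at -0.34. The rise of Vav3, an exchange factor for Rac, was called in WT (1.00) and not in KO (0.06, adjusted p = 0.563), and the difference between them passed the test (-0.94, SE 0.11, adjusted p = 0.00279). The smaller rise of Cblb in KO passed it too (-0.55, SE 0.12, edgeR adjusted p = 0.025). Vav3 and Cblb were the 2 of 24 genes called for the differing response (8.33%), beside 3.24% of all genes.

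In the list of inhibitory signalling, 13 of 14 genes were tested, and IL-4 raised 5 and lowered 6 in WT (median -0.11) and raised 5 and lowered 5 in KO (median -0.08). The share called was 84.6% in WT, beside 50.0% of all genes, and 76.9% in KO, beside 52.8%. Csk, the kinase that silences Src kinases, rose by 1.12 in WT and 1.21 in KO. Dok2, an adaptor of inhibitory signals, rose by 1.16 and 1.14, Lair1, an inhibitory collagen receptor, by 0.92 and 0.80, and Sirpa, the receptor for CD47, by 0.66 and 0.63. Pirb, an inhibitory receptor with near-identical relatives whose reads are hard to divide, was at -0.38 in WT and -0.68 in KO. Inpp5d, which encodes SHIP1 and was named after its values were seen, was at -0.11 in WT (adjusted p = 0.326) and -0.23 in KO (0.0424). In M0, 2 of the 13 genes (15.4%, beside 9.78% of all genes called) were higher in KO, Pirb (0.30) and Csk (0.14), and in M2 2 were higher and 1 lower (23.1%, beside 2.68%), including Csk (0.24) and the SHIP2 gene Inppl1 (-0.28). The Inppl1 response also differed between the genotypes (-0.32, adjusted p = 0.0195). This was 1 of the 13 genes (7.69%), beside 3.24% of all genes called for the differing response.

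In the list of other receptors that use the Fcer1g or Tyrobp chain, which also holds the adaptors Tyrobp and Hcst, 13 of 14 genes were tested, and 8 fell with IL-4 in WT and 9 in KO while 1 rose in each. The share called was 69.2% in WT, beside 50.0% of all genes called and 25.1% called lower, and 76.9% in KO, beside 52.8% and 26.0%. Their median log2 fold change was -0.72 in WT and -0.73 in KO, beside 0.68 and 0.87 for the Fc receptor genes. The C-type lectins Clec4e, Clec4d and Clec5a fell, at -3.23, -1.85 and -0.72 in WT and -2.48, -1.75 and -0.73 in KO. Trem1 was at -1.93 and -1.35, and Pira2, an activating receptor with near-identical copies, at -0.62 and -0.70. Cd300lb was the gene that rose (1.87 and 1.84). Like Fcer1g, the adaptor Tyrobp, named after its values were seen, was not called (-0.10 and -0.04). In M0, 3 of the 13 (23.1%, beside 9.78% of all genes called) were higher in KO, with Pira2 at 0.65, and in M2 2 were (15.4%, beside 2.68%).

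The genes of phagocytosis and of FcRn sorting were split between called and not called with IL-4. In the list of the phagocytic cup and actin, 20 of 20 genes were tested, and 3 rose and 4 fell in WT (median 0.05) and 3 rose and 5 fell in KO (median -0.04). The share called was 35.0% in WT and 40% in KO, beside 50.0% and 52.8% of all genes. Myo10, an unconventional myosin of phagocytic cups, fell (-1.45 and -1.48) and was also lower in KO in M0 (-0.50) and in M2 (-0.53). Myo1f rose in WT (0.35) and fell in KO (-0.18), a difference that passed the test (-0.53, adjusted p = 0.0147). This was 1 of the 20 genes (5.0%), beside 3.24% of all genes called for the differing response. In M0, 3 of these genes were higher in KO and 1 lower (20.0%, beside 9.78% of all genes called), and in M2 edgeR called Myo10 alone (5.0%, beside 2.68%). Of the FcRn partners and sorting genes 5 of 6 were tested and 2 rose in each genotype (40%, beside 50.0% and 52.8% of all genes called), the endosomal GTPase gene Rab4a (1.33 in WT, 0.79 in KO) and the sorting nexin gene Snx4 (0.31 and 0.19). Both were also higher in KO in M0, Rab4a by 1.44 and Snx4 by 0.19, where 9.78% of all genes were called, and in M2 Rab4a was higher by 0.91 (adjusted p = 0.0197; 1 of 5 genes, beside 2.68% of all genes). B2m, which encodes the partner of FcRn and was named after its values were seen, was at 0.09 in WT (adjusted p = 0.28) and 0.10 in KO (0.259) for IL-4, and at -0.04 for KO against WT in M0.

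Of the regulators of Fc receptor genes, 12 of 12 were tested, and 3 rose and 5 fell with IL-4 in WT (median -0.07) while 5 rose and 3 fell in KO (median 0.11). The share called was 66.7% in each genotype, beside 50.0% of all genes in WT and 52.8% in KO. Tgfbr1, a receptor chain for TGF-beta, fell, at -0.88 in WT and -1.24 in KO. Il4ra, the IL-4 receptor chain, rose by 0.38 and 0.52, and Ifngr2, a chain of the interferon gamma receptor, by 0.20 and 0.58. In M0, 4 of the 12 were lower in KO and 1 higher (41.7% called, beside 9.78% of all genes called and 4.27% called lower): Cebpb was at -0.48 and Ifngr2 at -0.22. In M2 none was called by edgeR. Cebpb fell with IL-4 in WT (-0.62) and not in KO (0.20, adjusted p = 0.149), and the difference passed the test (0.82, adjusted p = 0.0151), as it did for Ifngr2 (0.38, adjusted p = 0.0194) and, in the other direction, for Stat6 (-0.23, adjusted p = 0.048), which was named after its values were seen. These were the 3 of 12 regulators called for the differing response (25.0%), beside 3.24% of all genes. Of the other Fc receptors and Fc receptor-like genes, 4 of 14 passed the filter. Fcrls rose (2.63 in WT and 2.86 in KO) and Fcrl1 fell (-2.52 and -2.76), and Fcer1a and Fcer2a, which encode IgE-binding chains, were at 0 counts in all libraries.

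The counts for KO against WT and for the differing response moved with single libraries. Leaving out 1 library at a time gave between 3 and 8 higher ITAM signalling genes in KO, between 0 and 4 of the inhibitory signalling and of the other gamma chain or Tyrobp receptors, and between 1 and 5 lower regulators in M0. For the phagocytic cup in M0 it gave 0 to 4 higher and 1 to 3 lower genes. For FcRn sorting in M0 it gave 1 to 2 higher genes, and for the regulators 0 to 1 higher genes. In M2 it gave 0 to 5 higher receptors of the gamma chain or Tyrobp group, 0 to 3 lower genes of the phagocytic cup, 0 to 2 lower ITAM signalling genes, 0 to 2 higher and 0 to 1 lower inhibitory signalling genes, 0 to 1 higher FcRn sorting genes and 0 to 2 higher regulators. For the differing response to IL-4 it gave 0 to 3 higher and 0 to 1 lower regulators, 0 to 2 lower inhibitory signalling genes, 1 to 4 lower ITAM signalling genes and 1 to 2 lower genes of the phagocytic cup, so the calls of Cebpb, Ifngr2, Stat6 and Inppl1 were each lost without at least 1 library. With IL-4 the counts of each list stayed, when 1 library was left out, within 2 of the values above, except 4 to 8 for lower genes of the phagocytic cup in KO, whose value is 5. Some counts went higher over the other alternatives. For the differing response these gave 1 to 5 higher regulators and 1 to 5 lower ITAM signalling genes. They also gave 0 to 1 lower ITAM signalling genes in M0 and 5 to 9 lower phagocytic cup genes with IL-4 in KO.

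**Figure D4:**
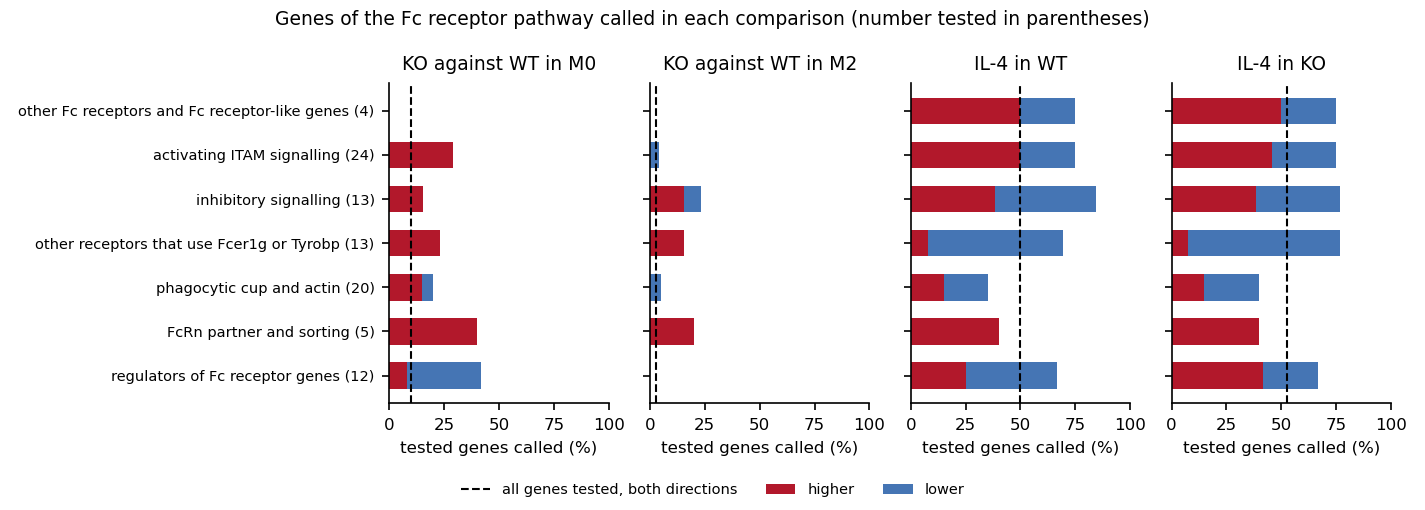
Share of the tested genes of each list called higher (red) and lower (blue), in percent, for the 4 comparisons, with the number tested beside each list name; the dashed line is the share of all genes called. After IL-4 in WT 75.0% of the ITAM signalling genes were called against 50.0% of all genes, and 35.0% of the phagocytic cup genes.

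Around Fcgr3 on chromosome 1 the response to IL-4 differed from gene to gene. Within 1 Mb, 36 other genes were tested, of which 14 rose and 7 fell in WT (58.3% called) and 15 rose and 7 fell in KO (61.1%), beside 50.0% and 52.8% of all genes called. Their median log2 fold change was 0.14 in WT and 0.19 in KO, and their values ran from -1.94 to 4.92 in WT. Counted from Fcgr3, Fcgr4 lies at -32.3 kb, Fcgr2b at -92.6 kb and Fcer1g at 178 kb. Fcrlb, an Fc receptor-like gene at -144 kb, rose by 2.80 in WT and 3.27 in KO, but had at most 19 counts in a library. The gene with the largest fitted rise in the stretch was Slamf1, a receptor of the SLAM family, at 4.92 in WT (SE 0.71) and 5.28 in KO (SE 0.65), and both Fcrlb and Slamf1 were named after their values were seen. Slamf1 had an SE of 1.26 for KO against WT in M0, against 0.22 for Fcgr2b, so its rise is less certain. Between KO and WT, 1 of the 36 genes (2.78%) was called in M0 and 1 in M2, beside 9.78% and 2.68% of all genes.

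**Figure D5:**
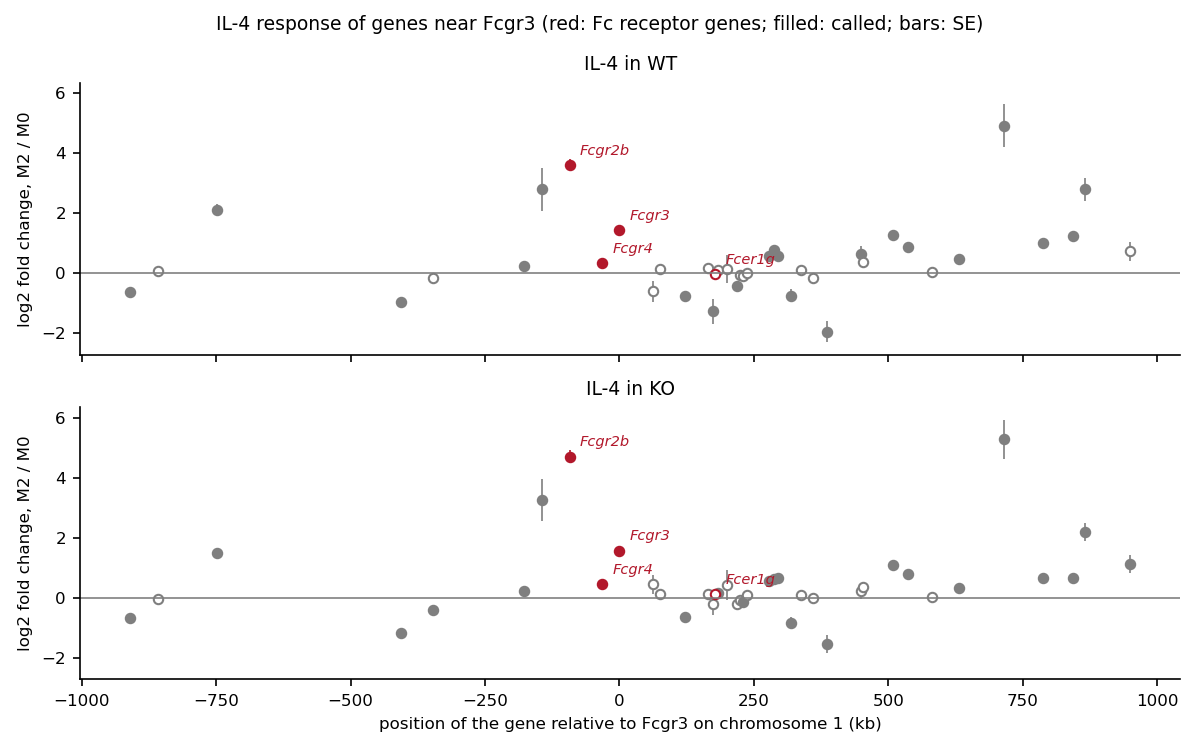
Log2 fold change for IL-4 in WT (top) and KO (bottom) with its SE, against the position of each tested gene relative to Fcgr3 in kb; red points are the Fc receptor genes and filled points were called. Fcgr2b at 3.61 and 4.70 stands above the genes next to it, and Fcer1g lies near 0.

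Over the 12 libraries the log2 CPM of Fcgr2b and Fcgr3 ran together (Pearson r = 0.98), and both ran with Fcgrt (r = 0.96 and 0.90). Fcgr1 ran against them (r = -0.96 with Fcgr2b and -0.98 with Fcgr3), and Fcer1g with none of them (r between -0.21 and 0.29). These 12 points fall into an M0 and an M2 set of 6 each, so the values describe mainly the IL-4 difference. Of 9746 genes that averaged 5 CPM or more, the genes most like Fcgr2b were Ch25h, Chst7 and Clec10a (r = 0.996 for each), those most like Fcgr3 were Snx2, Rnf130 and Gna15 (0.996 to 0.997), and those most like Fcgr1 were Susd6, Xylt2 and Slc43a2 (0.986 to 0.987). Those most like Fcgrt were Zfp36, Exo5 and Gusb (0.984 to 0.985) and those most like Fcgr4 were Trmt10c, Nrcam and Wdr3 (0.966 to 0.979). Fcer1g had no gene above r = 0.888.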

How the data were processed

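RNA-Seq of 12 BMM libraries (3 per group) was used. The authors sequenced poly(A) RNA as single reads of 75 nt and processed them with the Grape-nf pipeline on GRCm38. Per the file headers, each deposited library table holds expected counts, TPM and posterior estimates per gene; the annotation release behind them is not given in the sources used here. The study took untranslated regions from Gencode M10, whereas shared windows and positions here come from GENCODE M21. Deposited tables of the authors' own DESeq2 1.40.2 comparisons (fold changes and p-values) were not used, except that gene symbols were taken from one of them. Expected counts were rounded, scaled by TMM, filtered by filterByExpr and fitted in R 4.3.3 with edgeR 4.0.16 (quasi-likelihood F test, 1 coefficient per group, Benjamini-Hochberg adjustment over 12846 genes). DESeq2 1.42.0, limma 3.58.1 on log2(TPM + 1), on log2(TPM + 0.1) and on log2(posterior mean TPM + 1), RLE scaling, no filter, at least 1 CPM in 3 libraries, thinning to 20011771 counts, the 6 compared libraries alone, a replicate block, Fcgr2b and Fcgr3 added together, and leaving out each library were the alternatives. The scripts were tested on simulated data. Pairs of libraries within a group differed by more than sampling noise, and none was merged.

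The members and gene lists were chosen with earlier results of these data known. Text names all members, and per list up to 6 called genes with the largest absolute log2 fold change at a mean of at least 5 CPM, and the 3 genes most correlated with each member. Some items named by this rule are not reported here. Groups came from the titles. M0 and M2 libraries of the same number deviated together within each genotype (r from 0.103 to 0.364), so the numbers were taken to pair them in the replicate block. The main fit had no block and treated the 12 libraries as independent, also for IL-4 and for the differing response. Between genotypes, libraries of the same number did not deviate together (r from -0.07 to 0.04). The study gives 3 mice per group, so libraries of a group were taken as separate mice.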

Additional observations from a re-analysis of the deposited data

How the results depend on the processing

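The IL-4 calls of the 5 Fc receptor genes named above kept their direction and stayed called in both genotypes, in every alternative and with each library left out. The counts of genes called with IL-4 were 5606 to 6678 in WT and 6034 to 7038 in KO when 1 library was left out. For KO against WT in M0, limma called 752, 700 and 755 genes in place of 1256 on log2(TPM + 1), log2(TPM + 0.1) and log2(posterior mean TPM + 1), and 1 receptor gene in place of 3 on the first 2 scales, as did the fit to the 6 libraries compared. Leaving out 1 library gave 461 to 1461 genes and 1 to 3 receptor genes. In the same comparison the sum of Fcgr2b and Fcgr3 was at 0.025 (edgeR adjusted p = 0.895). Fcgr3 holds most of the counts of this sum, so it mainly follows Fcgr3 and does not test Fcgr2b again. For KO against WT in M2, DESeq2 called 713 genes and 1 receptor gene in place of 344 and 0, limma 70, 57 and 200 genes and the 6 libraries compared 165. Leaving out 1 library gave 25 genes (without KO M2 library 3) to 761 genes (without WT M0 library 3) and 0 to 2 receptor genes. For the difference between the IL-4 responses, DESeq2 called 816 genes in place of 416, limma 113, 113 and 163 and the replicate block 1003, and DESeq2, no filter, the replicate block and thinning each called 1 receptor gene, Fcgr2b. Leaving out 1 library gave 183 (without WT M0 library 2) to 643 genes (without WT M0 library 1) and 0 to 1 receptor genes. The replicate block changed no other call of a receptor gene. For KO against WT this block was the library number across both genotypes. Libraries of the same number did not deviate together between genotypes, so there the block was no check on pairing. The cause was not tested for any of these changes.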
